A study of Rattus norvegicus with 6 samples.

Results

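RNA polymerases I, II and III, the general transcription factors that place them at promoters, and Mediator, the complex that passes signals from gene-specific regulators to RNA polymerase II, were followed here as 1 gene module in rat neurons treated with camptothecin. The members were the genes whose symbol starts with Polr1, Polr2, Polr3, Gtf2, Gtf3 or Supt, or is Med or Taf followed by a digit, with the RNA-binding protein gene Taf15 left out. Of the 14506 genes that had a transcript cluster (the array's unit for a gene) with 1 gene symbol, 90 were members, read from 94 clusters. A gene with several clusters was read from the brightest of them. None of the 90 was removed by a filter. Polr2a and Polr3a, the largest subunits of polymerases II and III, Med12, Med13l, Taf1 and Taf4 had no cluster with 1 symbol and were not analysed here.

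The cells were primary motor neuron cultures from rat embryos of embryonic day 13.5, kept for 2 days in vitro. One group of 3 arrays came from cultures given 1 microM camptothecin for 2 h, and the other group of 3 from cultures given the same volume of the solvent DMSO for 2 h. Camptothecin traps topoisomerase 1, the enzyme that relaxes DNA ahead of a moving polymerase, on its DNA. The labels call the samples biological replicates but do not say whether they came from separate litters or cultures, or whether embryos were pooled, so each p-value reflects only how far these 6 samples scatter, which may be technical. Of 8 measured motor neuron markers 6 were dim, that is, below the median cluster, and the means of the 8 ran from 5.15 to 6.43 in DMSO. Of 6 measured interneuron and sensory neuron markers 0 were dim (8.39 to 10.65 in DMSO), and 5 of these 6 fell with camptothecin. The share that fell was 9.35% of all genes, 14.8% of genes that were not dim and 22.1% of genes spanning 30 kb or more. The 5 that fell spanned 40.1 to 91.2 kb. Slc32a1, at 4.47 kb, did not pass (0.23). Of the motor neuron markers Nefh (0.59) and Prph (0.31) rose, and the other 6 did not pass. Markers of other cell types were measured too. In DMSO the 2 markers of dividing cells stood at 8.24 and 10.20, and the 4 astroglial markers ran from 5.83 to 10.03. Mbp, of oligodendrocytes and Schwann cells, fell (-0.48), and Acta1, of skeletal muscle, rose (0.32). No other marker of those other cell types passed. Summed over the 6 interneuron and sensory markers, the log2 level was 51.6 to 52.2 in the treated arrays and 55.8 to 56.6 in the DMSO arrays, and the part of this in the results below was not tested. In RNA from whole cultures, fewer cells of a type and less RNA per cell cannot be told apart.

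Transcription in animal cells is divided among 3 polymerases. Polymerase I makes the precursor of the large ribosomal RNAs, polymerase II makes messenger RNAs, and polymerase III makes transfer RNAs and other short RNAs. Several small subunits are shared by all 3 enzymes. At a messenger RNA promoter TFIID binds first, through the TATA-binding protein and its associated factors (the TAFs), and TFIIA, TFIIB, TFIIF, TFIIE and TFIIH then join with the polymerase, while Mediator bridges this assembly to activators.

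The module moved in both directions within 2 h. By limma's moderated test with Benjamini-Hochberg adjustment over all 29214 clusters, 21 of the 90 members rose, 15 fell and 54 did not pass the threshold of 0.05. Among all 14506 genes 11.3% rose and 9.35% fell, 20.7% in all, against 40% of the members. The members were brighter than most genes: 6 of 90 were dim, and among the 8472 genes at or above that median 17.1% rose, 14.8% fell and 31.9% were called in all. The split depended on the scale: with arrays centred on their median 11 members rose and 17 fell, and with arrays centred on ribosomal protein genes 4 rose and 33 fell. The median log2 change (camptothecin minus DMSO) was 0.11 over the members and 0.06 over all genes, and with ribosomal protein centring the members' median turned to -0.14. In 58 of 90 members the 3 camptothecin values all lay on one side of the 3 DMSO values, which held for 42.6% of all genes and for 59.9% of the brighter ones. It also held for every gene called, 1643 higher and 1356 lower, so for a called gene it adds no support.

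The falls were larger than the rises. Med14 and Taf7 fell by 2-fold or more, a size reached by 1.35% of all genes in either direction. With each gene read from its brightest cluster, the largest rise, in Polr2d, stayed just under 2-fold. A dimmer cluster of Gtf2a2, described below, rose by 1.25. The rises ran from 0.22 to 0.97 on the log2 scale with a median of 0.36, and the falls from -0.27 to -1.40 with a median of -0.52. Over all genes called in each direction the medians were 0.40 and -0.53. The 54 members that did not pass lay between -0.32 and 0.43. With 1 array left out the number of rises dropped to 8 without any of the DMSO arrays, 12 without camptothecin replicate 2, 13 without camptothecin replicate 3 and 16 without camptothecin replicate 1. The number of falls was 9 to 12 in those fits, with 9 without camptothecin replicate 3 or DMSO replicate 1. Polr2d, Polr2h, Polr2g, Taf5l1, Polr2f and Med19 among the rises, and Med14, Taf7, Med13, Gtf2ird1, Gtf2f2, Taf5, Taf2, Med6 and Gtf2e1 among the falls, passed in all 6 of those fits. Each of the other 15 rises passed in 0 to 4 of the 6 fits, and each of the other 6 falls in 1.

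**Figure D1:**
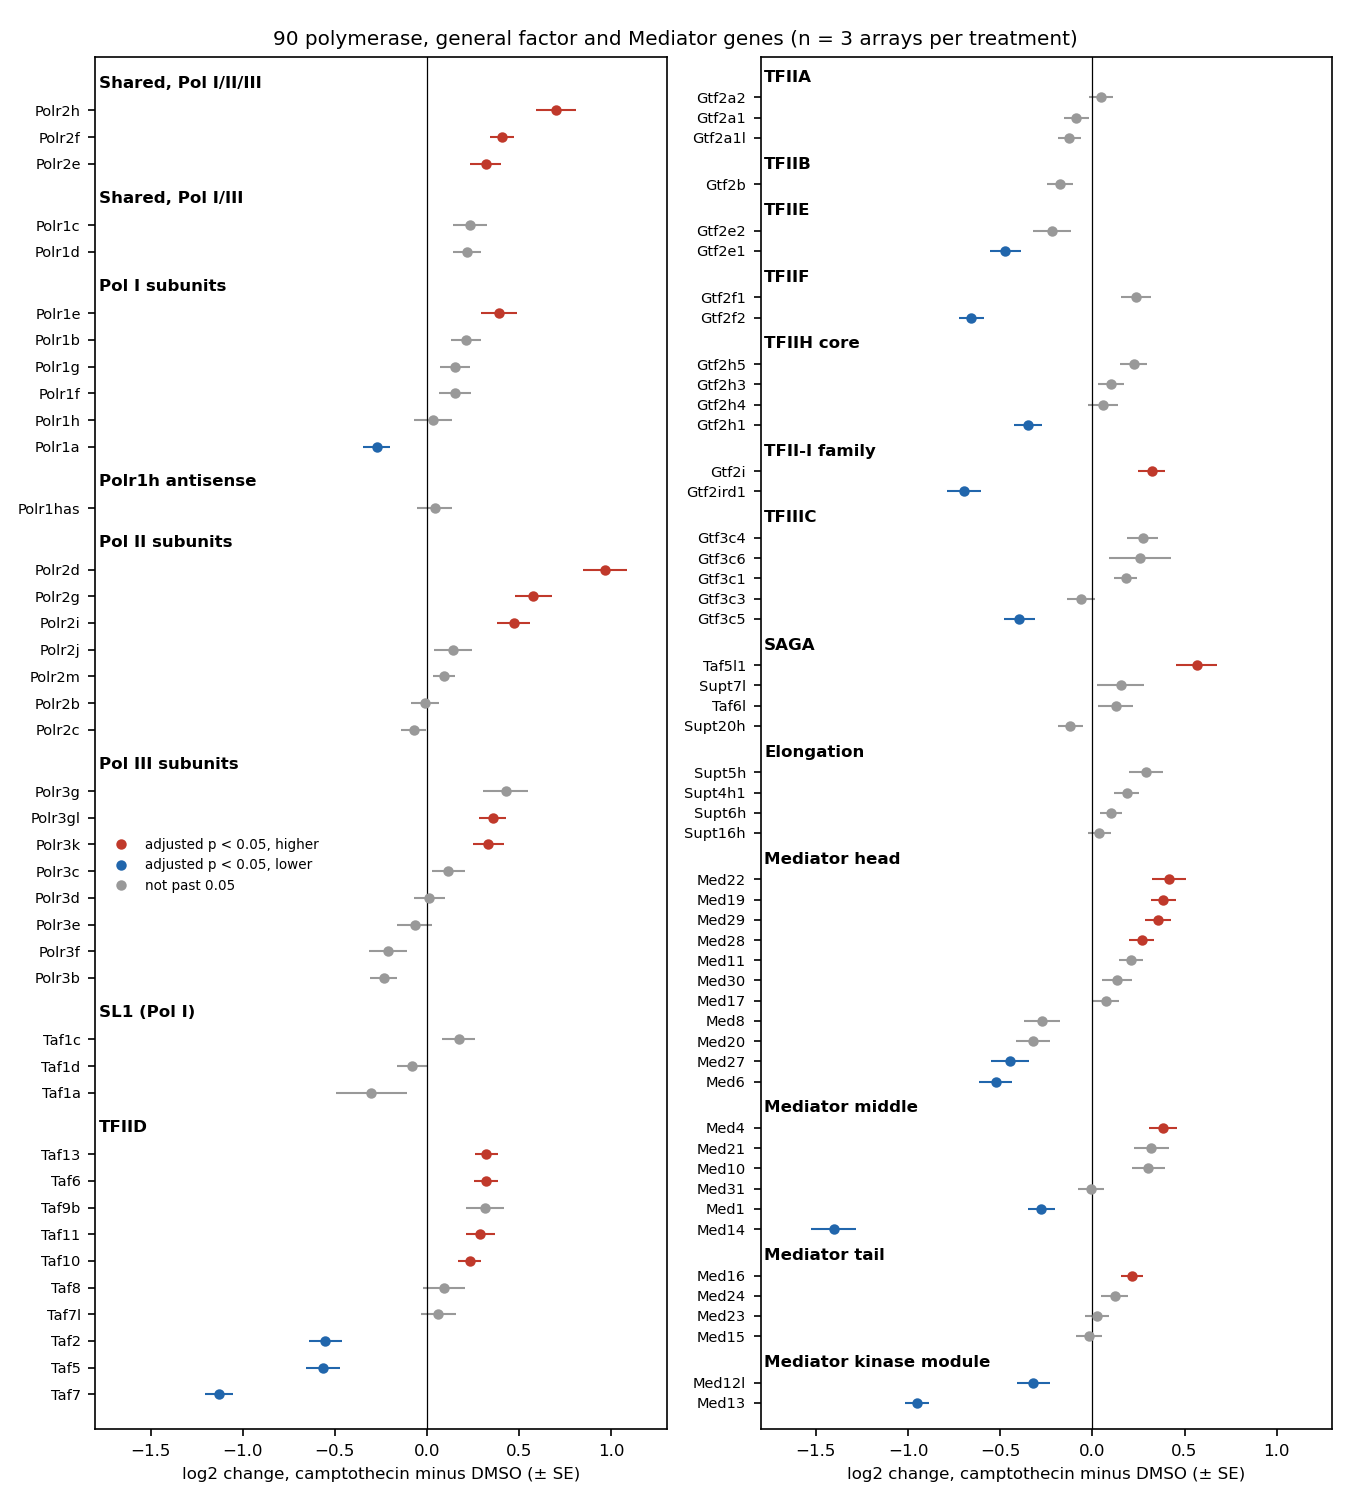
Log2 change, camptothecin minus DMSO, with limma's standard error for each of the 90 members, grouped by complex (n = 3 arrays per treatment). Red points rose, blue points fell and grey points did not pass an adjusted p of 0.05. All 3 subunits shared by every polymerase are red, and the pair shared by polymerases I and III is grey. Mediator and TFIID hold both red and blue members. With ribosomal protein centring Taf10 and Med16, red here, turn below 0.

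The DNA just before the start sites of the 3 largest falls and the 3 largest rises is printed here to show which kind of promoter each set has. Each stretch is the 150 bases before the annotated start on the gene's strand, 5′ to 3′, from RefSeq's GRCr8 assembly. Capitals mark matches, on either strand, to the GC box GGGCGG, to the CCAAT box (its own letters), to the TATA box as TATAAA, and to the ETS factor motif as CCGGAAG.
Med14 (chrX:12709571-12709720, plus strand): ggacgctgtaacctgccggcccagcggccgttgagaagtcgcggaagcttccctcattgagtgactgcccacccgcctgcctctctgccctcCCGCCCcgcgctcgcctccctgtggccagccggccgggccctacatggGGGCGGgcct
Taf7 (chr18:29713325-29713474, minus strand): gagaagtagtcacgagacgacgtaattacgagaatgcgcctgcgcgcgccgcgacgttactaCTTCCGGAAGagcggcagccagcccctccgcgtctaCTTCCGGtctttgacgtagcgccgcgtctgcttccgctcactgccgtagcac
Med13 (chr10:71673902-71674051, minus strand): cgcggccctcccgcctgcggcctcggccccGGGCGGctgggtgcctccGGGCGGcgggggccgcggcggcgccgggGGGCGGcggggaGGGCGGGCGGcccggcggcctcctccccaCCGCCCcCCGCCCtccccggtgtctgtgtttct
Polr2d (chr18:23692428-23692577, plus strand): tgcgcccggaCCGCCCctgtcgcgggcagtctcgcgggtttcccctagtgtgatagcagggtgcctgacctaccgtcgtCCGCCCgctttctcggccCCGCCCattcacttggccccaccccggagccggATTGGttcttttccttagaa
Polr2h (chr11:93700872-93701021, minus strand): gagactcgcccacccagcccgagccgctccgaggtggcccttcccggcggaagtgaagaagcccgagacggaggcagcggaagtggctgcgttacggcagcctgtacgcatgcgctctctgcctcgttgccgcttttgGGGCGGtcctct
Polr2g (chr1:215121657-215121806, minus strand): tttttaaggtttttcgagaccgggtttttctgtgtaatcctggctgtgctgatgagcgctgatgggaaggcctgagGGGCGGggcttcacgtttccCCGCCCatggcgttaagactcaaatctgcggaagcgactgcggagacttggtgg

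All 6 genes lacked TATAAA in this stretch. Med13 held 7 GC boxes, 1 pair of them overlapping, Polr2d 3 with 1 CCAAT, Med14 and Polr2g 2 each and Polr2h 1, whereas Taf7 held 3 ETS-type matches, and 1 pair of them overlaps. Promoters were available for 78 of the 90 members, 21 of those that rose and 11 of those that fell. In the 250 bases before the start, GC content had a median of 59.6% in the risers, 60.4% in the fallers and 57.2% in all 11950 array genes with a promoter. The ratio of observed to expected CpG had a median of 0.85 in the risers, 0.90 in the fallers and 0.63 in all array genes. GGGCGG was present in 15 of 21 risers, 7 of 11 fallers and 47.3% of all array genes, and TATAAA in 2, 0 and 11.2%. CCAAT was present in 11 of 21 risers, 3 of 11 fallers and 35.6% of all, and CCGGAAG in 5, 2 and 11.2%. CCGGAAG was in 23 of the 78 member promoters. These are letter matches in a fixed window, with no measurement of binding.

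Of 26 measured polymerase subunits 9 rose, 1 fell and 16 did not pass, beside 11.3% of all genes and 17.1% of the brighter genes that rose. The 10 that belong to polymerase II, alone or shared by all polymerases, gave 6 rises and 0 falls by limma, with none of the 10 lower at an unadjusted p under 0.05 either. With arrays centred on ribosomal protein genes, the 6 kept positive changes, and 3 of them, Polr2d, Polr2h and Polr2g, kept their call. The median over all 26, 0.18 on the deposited scale, is smaller than the shift of -0.25 that this centring applies, so it turns below 0 there. Polr2d encodes Rpb4, which with Rpb7 forms a stalk on the polymerase II core. Polr2d read 9.49, 9.74 and 9.45 on the camptothecin arrays and 8.39, 8.73 and 8.66 on the DMSO arrays. All 3 camptothecin arrays were higher than all 3 DMSO arrays, and the log2 change was 0.97 (1.95-fold higher, SE 0.12, n = 3 per treatment, limma adjusted p = 0.00267). Polr2g encodes Rpb7, the other stalk subunit. Polr2g read 8.22, 8.40 and 8.12 on the camptothecin arrays and 7.79, 7.56 and 7.66 on the DMSO arrays. The groups did not overlap, and the change was 0.58 (1.49-fold higher, SE 0.10, n = 3 per treatment, limma adjusted p = 0.00953). Polr2i encodes Rpb9, a small subunit that helps the enzyme keep fidelity. Polr2i read 10.44, 10.65 and 10.41 on the camptothecin arrays and 10.12, 9.95 and 10.02 on the DMSO arrays. It rose by 0.47 (SE 0.09), again without overlap. Polr2b, the second-largest subunit of polymerase II, did not pass. Polr2b read 10.16, 10.26 and 10.18 on the camptothecin arrays and 10.29, 10.23 and 10.11 on the DMSO arrays. Its groups overlapped, and its change was -0.01 with a 95% interval from -0.19 to 0.17. Polr2j, Polr2m and Polr2c did not pass, at 0.14, 0.09 and -0.07.

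The 3 measured subunits that all polymerases share rose together. Polr2h encodes Rpb8. Polr2h read 8.42, 8.73 and 8.33 on the camptothecin arrays and 7.78, 7.80 and 7.80 on the DMSO arrays. The DMSO arrays lay within 0.02 of each other and below every camptothecin array, and the change was 0.70 (1.63-fold higher, SE 0.11, n = 3 per treatment, limma adjusted p = 0.00663). Polr2f, which encodes Rpb6, a subunit that holds the large clamp in place, followed. Polr2f read 9.87, 9.99 and 9.92 on the camptothecin arrays and 9.50, 9.56 and 9.51 on the DMSO arrays. The change was 0.41 (SE 0.07, adjusted p = 0.00743). Polr2e, the gene of Rpb5, rose by 0.32 (SE 0.08), and lost its call in 5 of the 6 fits with an array left out. Polr1c and Polr1d, the pair shared by polymerases I and III, had changes of 0.23 (limma adjusted p = 0.133) and 0.22 (limma adjusted p = 0.0991), and did not pass. Their groups did not overlap, which also held for 42.6% of all genes and 59.9% of the brighter ones.

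Polymerase I gave 1 rise and 1 fall in 6 subunits, beside 11.3% of all genes that rose and 9.35% that fell. Polr1e, a subunit of the heterodimer that resembles TFIIF, rose. Polr1e read 7.92, 8.18 and 7.99 on the camptothecin arrays and 7.78, 7.59 and 7.55 on the DMSO arrays. The lowest camptothecin value stood 0.14 above the highest DMSO value, and the change was 0.39 (SE 0.10, adjusted p = 0.0367). Polr1a, the largest subunit, was the polymerase subunit that fell. Polr1a read 6.60, 6.62 and 6.58 on the camptothecin arrays and 6.90, 6.96 and 6.77 on the DMSO arrays. The change was -0.27 (SE 0.07, adjusted p = 0.0415). Polr1b, its partner in the active centre, was dim and had a change of 0.21 (adjusted p = 0.126). Polr1f, Polr1g and Polr1h did not pass (0.15, 0.15 and 0.03). Polr1has, named as the antisense gene of Polr1h, was dim and had a change of 0.04 (SE 0.09), and whether its probes tell the strands apart was not tested. The selectivity factor SL1, which brings polymerase I to the ribosomal DNA, gave no call in its 3 measured TAFs by limma. At an unadjusted p of 0.05 there was none either. Taf1a had the largest change there, -0.30 with an SE of 0.19, and its camptothecin arrays spread over 0.78.

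Polymerase III gave 2 rises and 0 falls in 8 subunits, beside 11.3% of all genes that rose and 9.35% that fell. Of the 8, Polr3b was lower at an unadjusted p under 0.05. Polr3k, a small subunit that acts in termination, rose by 0.33 (SE 0.08) and lost its call in each of the 6 fits with an array left out, and Polr3gl, one of the alternative forms of a peripheral subunit, by 0.36 (SE 0.07). Polr3g, the other form, had the largest value of the 8 at 0.43 but a larger spread, and narrowly missed the threshold (adjusted p = 0.0525). Polr3b, the second-largest subunit, had a change of -0.23 (limma adjusted p = 0.066) and did not pass. It was lower on all 3 camptothecin arrays, and the groups likewise did not overlap in 59.9% of the brighter genes. Polr3c, Polr3d, Polr3e and Polr3f lay between -0.21 and 0.12, and none passed.

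**Figure D2:**
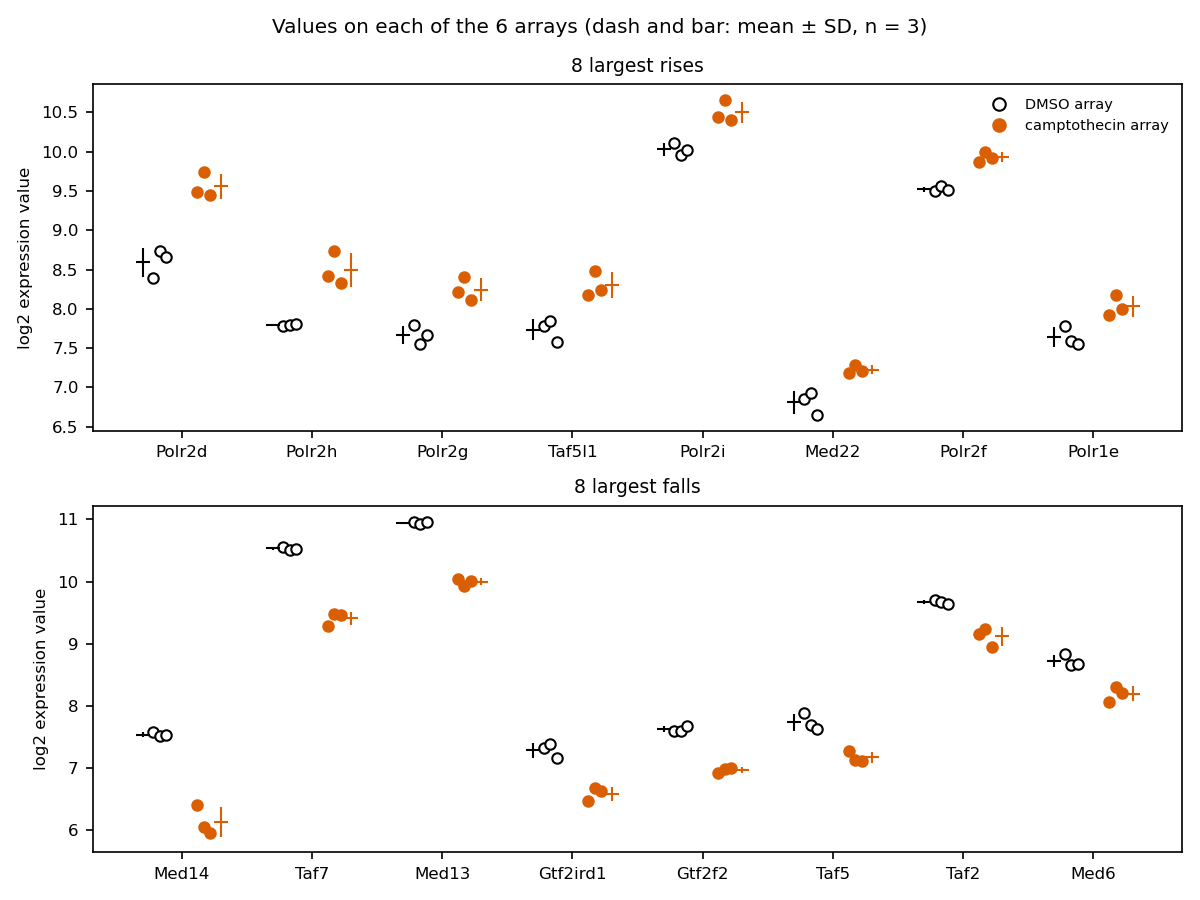
Log2 expression value on each array for the 8 members with the largest rises (top) and the 8 with the largest falls (bottom). Open circles are DMSO arrays, filled circles camptothecin arrays, and a dash with a bar is the mean ± SD of 3 arrays. In all 16 genes the groups do not overlap, as in every gene called on the array (1643 higher and 1356 lower).

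TFIID split between falls in 3 members and smaller rises in 4 of its 10 measured TAFs. Of all genes 9.35% fell and 11.3% rose, and of the brighter genes 14.8% and 17.1%. Taf7, which restrains the acetyltransferase activity of Taf1, had the largest fall of the 10. Taf7 read 9.28, 9.47 and 9.46 on the camptothecin arrays and 10.56, 10.51 and 10.53 on the DMSO arrays. The DMSO arrays stood at least 1.04 above every camptothecin array, and the change was -1.13 (2.18-fold lower, SE 0.08, n = 3 per treatment, limma adjusted p = 0.000203). Taf5 encodes a scaffold subunit of the TFIID core. Taf5 read 7.27, 7.12 and 7.12 on the camptothecin arrays and 7.89, 7.69 and 7.62 on the DMSO arrays. It changed by -0.56 (SE 0.09, adjusted p = 0.00789) without overlap. Taf2 encodes a subunit that contacts initiator DNA. Taf2 read 9.16, 9.23 and 8.95 on the camptothecin arrays and 9.70, 9.67 and 9.64 on the DMSO arrays. It changed by -0.55 (SE 0.09, adjusted p = 0.00734). The histone-fold subunits Taf13 (0.32, SE 0.06), Taf6 (0.32), Taf11 (0.29) and Taf10 (0.23) rose. The calls of these 4 rises were lost in 3 to 6 of the fits with an array left out. With ribosomal protein centring none of the 4 kept its call, and Taf10 turned to -0.019. Taf9b (0.31, adjusted p = 0.0771) and Taf8 (0.09) did not pass. Taf7l, a paralogue of Taf7 known from germ cells and fat, was dim at a mean of 4.14 with camptothecin and 4.08 with DMSO.

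Of the 12 measured subunits of TFIIA, TFIIB, TFIIE, TFIIF and the TFIIH core, 3 fell and 0 rose by limma. Shares over all genes were 9.35% lower and 11.3% higher, and over the brighter genes 14.8% and 17.1%. At an unadjusted p under 0.05 Gtf2f1 and Gtf2h5 were higher and Gtf2b was lower. Gtf2f2 encodes the small subunit of TFIIF, which escorts polymerase II to the promoter. Gtf2f2 read 6.91, 6.99 and 6.99 on the camptothecin arrays and 7.59, 7.60 and 7.67 on the DMSO arrays. The change was -0.66 (1.58-fold lower, SE 0.07, n = 3 per treatment, limma adjusted p = 0.001). Gtf2f1, the large subunit of the same factor, changed the other way by 0.23 (adjusted p = 0.0936) and did not pass. Gtf2e1, the large subunit of TFIIE, changed by -0.47 (SE 0.08, adjusted p = 0.0106), and its partner Gtf2e2 by -0.22 (adjusted p = 0.193), which did not pass. Gtf2h1, the TFIIH core subunit p62, changed by -0.35 (SE 0.08, adjusted p = 0.021) and passed in 1 of the 6 fits with an array left out. Gtf2h3, Gtf2h4 and Gtf2h5 lay between 0.06 and 0.22. Gtf2b, the gene of TFIIB, changed by -0.18 and did not pass (adjusted p = 0.142).

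TFIIA gave no call by limma in its 3 genes, of which Gtf2a1l, a paralogue known from testis, had the largest change (-0.13, adjusted p = 0.216). None of the 3 passed an unadjusted p of 0.05. Gtf2a2 was read by 2 clusters that disagreed. The brighter one, which stood for the gene here, had a change of 0.05 (adjusted p = 0.696). The dimmer one, at a mean of 8.54 against 9.86, rose by 1.25 (SE 0.18, adjusted p = 0.00513). What the dimmer cluster detects was not tested, and it was picked out after its value was seen. Taf5l1 was the other member with more than 1 cluster, and all 4 of its clusters rose, by 0.31 to 0.58.

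The TFII-I family held a pair that moved apart. Gtf2ird1 and Gtf2i are neighbours in the rat genome with no protein-coding gene between them, and in people both lie in the region deleted in Williams syndrome. Gtf2ird1 read 6.46, 6.67 and 6.63 on the camptothecin arrays and 7.31, 7.38 and 7.15 on the DMSO arrays. All camptothecin arrays were lower, and the change was -0.69 (1.62-fold lower, SE 0.09, n = 3 per treatment, limma adjusted p = 0.00347). Gtf2i, which encodes the multifunctional factor TFII-I, rose by 0.32 (SE 0.07, adjusted p = 0.0242), and passed in 1 of the 6 fits with an array left out. Among the 5 measured subunits of TFIIIC, the factor that recognises transfer RNA genes for polymerase III, Gtf3c5 fell by 0.40 (SE 0.09, adjusted p = 0.021) and the others lay between -0.06 and 0.27 without a call. Gtf3c5 kept its call in 1 of the 6 fits with an array left out.

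Mediator gave 6 rises and 6 falls in 23 measured subunits, 26.1% each way, and its falls were the larger. Among all genes 11.3% rose and 9.35% fell, and among the brighter genes 17.1% and 14.8%. After quantile normalization was applied again the 6 rises and 5 of the 6 falls kept their call. Ribosomal protein centring, which lowers every change alike, left none of the 6 rises past the threshold and turned Med16 to -0.033. Med14 encodes the backbone that joins the head, middle and tail of the complex. Med14 read 6.40, 6.04 and 5.95 on the camptothecin arrays and 7.58, 7.50 and 7.52 on the DMSO arrays. The camptothecin arrays stood at least 1.10 below the DMSO arrays, and the change was -1.40 (2.65-fold lower, SE 0.12, n = 3 per treatment, limma adjusted p = 0.000543). The camptothecin mean, 6.13, lay below the median brightness of 6.28 used here to call a gene dim, so the size of this fold rests on a dim signal. Med13 encodes the link between the kinase module and the rest of Mediator. Med13 read 10.04, 9.93 and 10.01 on the camptothecin arrays and 10.96, 10.93 and 10.96 on the DMSO arrays. The 3 arrays lay within 0.11 of each other with camptothecin and within 0.03 with DMSO, without overlap, and the change was -0.95 (1.93-fold lower, SE 0.06, n = 3 per treatment, limma adjusted p = 0.000195). Med12l, a paralogue of the kinase module subunit Med12, fell by 0.32 (SE 0.09, adjusted p = 0.0484). Of the 5 measured genes of the kinase module, counting the partners Cdk8, Cdk19 and Ccnc, 3 fell and 2 did not pass. The share that fell was 9.35% of all genes and 14.8% of the brighter genes. Med12l kept its call in 1 of the 6 fits with an array left out and lost it after quantile normalization was applied again (limma adjusted p = 0.0824).

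In the head of Mediator, Med6 and Med27 fell while Med22, Med19, Med29 and Med28 rose, of 11 measured. Among all genes 9.35% fell and 11.3% rose, and among the brighter genes 14.8% and 17.1%. Med6 is a conserved head subunit. Med6 read 8.06, 8.31 and 8.21 on the camptothecin arrays and 8.83, 8.65 and 8.67 on the DMSO arrays. It changed by -0.52 (SE 0.09, adjusted p = 0.00896) without overlap. Med27 changed by -0.44 (SE 0.10, adjusted p = 0.0276) and passed in 1 of the 6 fits with an array left out. Med22 had the largest rise in Mediator. Med22 read 7.18, 7.29 and 7.21 on the camptothecin arrays and 6.85, 6.93 and 6.65 on the DMSO arrays. It rose by 0.42 (SE 0.09, adjusted p = 0.0217). Med19 rose by 0.38 (SE 0.07), Med29 by 0.36 (SE 0.07) and Med28 by 0.27 (SE 0.07). With an array left out Med19 passed in all 6 fits, Med29 in 4, Med22 in 2 and Med28 in 0. Med20 (-0.32, adjusted p = 0.0536) narrowly missed the threshold, and Med8, Med11, Med17 and Med30 did not pass either. In the middle, Med1, the subunit that binds nuclear receptors, fell by 0.28 (SE 0.07) beside Med14, and Med4 rose by 0.38 (SE 0.07). Med10 (0.30, limma adjusted p = 0.0591) and Med21 (0.32, limma adjusted p = 0.0593) narrowly missed the threshold, and Med31 did not pass either. Med1 kept its call in 1 of the 6 fits with an array left out and Med4 in 4. In the tail, Med16 rose by 0.22 (SE 0.06), just past the threshold, and Med15, Med23 and Med24 lay between -0.02 and 0.12 without a call. Med16 lost its call in each of those 6 fits.

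The remaining members act at chromatin and in elongation. Taf5l1, the gene of a TAF5-like protein of the SAGA coactivator, rose. Taf5l1 read 8.18, 8.49 and 8.24 on the camptothecin arrays and 7.79, 7.84 and 7.58 on the DMSO arrays. The change was 0.57 (1.48-fold higher, SE 0.11, n = 3 per treatment, limma adjusted p = 0.0148). Taf6l, Supt7l and Supt20h, also of SAGA, did not pass (0.13, 0.15 and -0.12). The elongation factors and histone chaperones gave 0 calls in 4 genes by limma, and at an unadjusted p under 0.05 Supt5h and Supt4h1 were higher. Supt5h and Supt4h1 encode the subunits of DSIF, which holds and then releases paused polymerase II, and had changes of 0.29 (adjusted p = 0.0761) and 0.19 (adjusted p = 0.107). Supt6h, a histone chaperone that travels with the polymerase, had 0.10, and Supt16h, a subunit of the FACT chaperone, 0.04.

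Genes that work with the members but lie outside the symbol rule were listed with earlier results of these data known. Most of those that moved were lower. Of 41 measured partner genes 3 rose and 11 fell, against 11.3% and 9.35% of all genes and 17.1% and 14.8% of the brighter genes. Of the 41, 5 were below the median brightness. Without DMSO replicate 2 or 3 the count of rises was 0, and without DMSO replicate 1 or 2 the count of falls was 7. The TATA-binding protein gene Tbp, the DNA-binding core of TFIID, fell. Tbp read 7.98, 8.11 and 7.86 on the camptothecin arrays and 8.80, 8.66 and 8.65 on the DMSO arrays. The change was -0.72 (1.64-fold lower, SE 0.09, n = 3 per treatment, limma adjusted p = 0.0025). The 3 genes of the kinase arm of TFIIH, which phosphorylates the tail of polymerase II, all fell. Mnat1, its assembly factor, had the largest change. Mnat1 read 6.32, 6.72 and 6.32 on the camptothecin arrays and 7.71, 7.77 and 7.69 on the DMSO arrays. The groups stood at least 0.97 apart, and the change was -1.27 (2.41-fold lower, SE 0.12, n = 3 per treatment, limma adjusted p = 0.000724). The cyclin Ccnh changed by -0.51 (SE 0.06) and the kinase Cdk7 by -0.29 (SE 0.07), and Cdk7 lost its call in each of the 6 fits with an array left out. The TFIIH helicase subunit Ercc3, also among the partners, did not pass (0.23, limma adjusted p = 0.115). It was higher at an unadjusted p under 0.05. Cdk8, the kinase of the Mediator module that holds Med13, changed by -0.44 (SE 0.07, adjusted p = 0.00755), while its paralogue Cdk19 and the cyclin Ccnc did not pass (0.09 and 0.07).

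Among polymerase III partners, the TFIIIB subunit Bdp1 fell by 0.70 (SE 0.07, adjusted p = 0.00082) and Brf1 did not pass (0.09). The complex that binds small nuclear RNA promoters split, with Snapc5 (0.53), Snapc2 (0.40) and Snapc1 (0.40) higher and Snapc3 (-0.49) lower. These 3 rises passed in 2 to 4 of the 6 fits with an array left out. Cdc73 of the PAF1 elongation complex changed by -0.59 (SE 0.07, adjusted p = 0.00197), and the other 5 measured PAF1 complex genes did not pass. The polymerase II assembly factor Gpn3 (-0.32) and the phosphatases Ctdp1 (-0.50) and Ctdspl (-0.47), which act on the polymerase II tail or resemble enzymes that do, also fell, each passing in 2 or 3 of those 6 fits. Ctdspl was dim, at a mean of 5.06 with camptothecin and 5.52 with DMSO. Of the 4 measured phosphatases, Ssu72 (0.21) and Ctdsp1 (0.00) did not pass, and Ssu72 was higher at an unadjusted p under 0.05 by limma. The other 3 measured assembly factors did not pass. The polymerase I factor Ubtf (0.01), the 3 measured genes of the pausing factor NELF and the 3 TFIIS genes gave 0 calls by limma and 1 at an unadjusted p under 0.05, Nelfe (-0.27).

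The direction of a member went with the length of its gene. Of the 62 members with an annotated span under 30 kb, 20 rose and 5 fell, and of the 28 members of 30 kb or more, 1 rose and 10 fell. Among all genes 15.2% rose and 2.34% fell under 30 kb, and 4.29% rose and 22.1% fell at 30 kb or more. All 5 members of 100 kb or more, Gtf2ird1, Gtf2f2, Med27, Med12l and Polr3b, had negative changes, and 4 of them fell, where 34.9% of all genes of that length fell. The median span was 8.46 kb for members that rose and 57.0 kb for those that fell, beside 10.7 kb and 83.3 kb for all genes called in each direction. Across the 90 members Spearman's rho of span and change was -0.46, and -0.44 without Med14, Taf7, Med13 and Polr2d. Over all 14480 genes with a span it was -0.31. Centring the arrays shifts every change alike and leaves rho as it is, while the counts above are on the deposited scale. Members are not independent replicates, since all values come from the same 6 arrays.

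Several members departed from that pattern. Gtf2i, at 75.3 kb, was the one riser of 30 kb or more. Taf7, at 9.20 kb, was the one member under 10 kb that fell, where 1.21% of all genes of that length did. Med6 (13.5 kb), Taf5 (15.5 kb), Gtf3c5 (20.3 kb) and Gtf2h1 (28.0 kb) fell as well, and among the partners so did Tbp at 17.1 kb. The spans come from an assembly that is not known to be the one behind the array. Brightness did not follow span among the members (rho 0.00), while over all genes rho was 0.32.

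**Figure D3:**
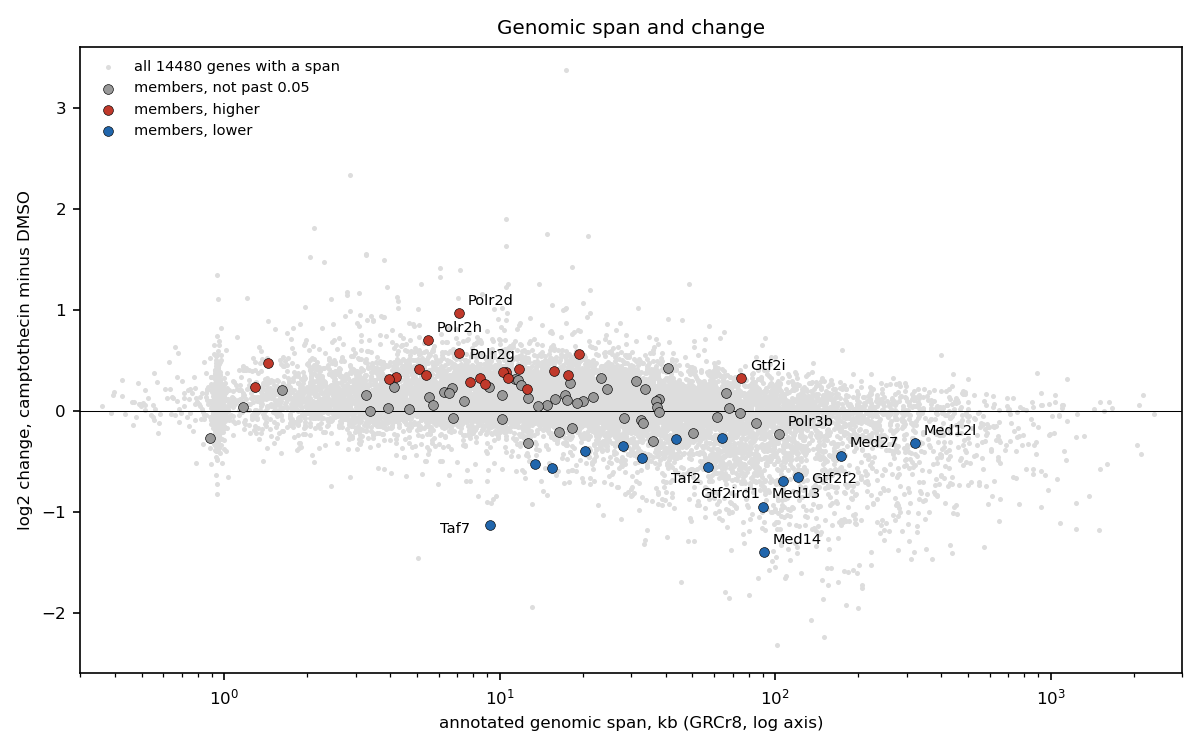
Annotated genomic span in kb on a log axis against the log2 change, camptothecin minus DMSO. Pale dots are all 14480 genes with a span, and large points are the 90 members, red for rises, blue for falls and grey for those not past 0.05. Red points other than Gtf2i lie under 30 kb, and Taf7 stands alone among blue points under 10 kb.

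A difference between subunits on the same array is not altered by adding a constant to that array, as centring does, so 8 pairs, chosen after their values were seen, are given in that form. These differences are between probes of different genes, so only their change between treatments can be read. That change is the difference of the 2 genes' changes given above, so a rise set against a fall adds no new support. For TFIIF, Gtf2f1 minus Gtf2f2 was 2.53, 2.70 and 2.55 with camptothecin and 1.75, 1.74 and 1.61 with DMSO. The group means were 0.89 apart, and the groups did not overlap. For Gtf2i minus Gtf2ird1 the values were 3.58, 3.52 and 3.48 with camptothecin and 2.50, 2.46 and 2.57 with DMSO, with means 1.02 apart. For Med19 minus Med14 they were 2.09, 2.59 and 2.60 with camptothecin and 0.62, 0.67 and 0.62 with DMSO. Their means were 1.79 apart, the largest difference of means in the 8 pairs. For Taf13 minus Taf7 the values were 1.79, 1.66 and 1.60 with camptothecin and 0.21, 0.28 and 0.21 with DMSO, with means 1.45 apart. Polr2d minus Polr2b moved by 0.97 and Gtf3c4 minus Gtf3c5 by 0.67, both without overlap. For the stalk pair, Polr2g minus Polr2d changed by -0.39, but the nearest arrays of the groups were -1.27 and -1.17. The DMSO arrays spread widely (SD 0.295, against 0.0397 with camptothecin), with DMSO replicate 1 at -0.596. Both genes rose, and whether they rose unequally was not tested. For TFIIE, Gtf2e2 minus Gtf2e1 overlapped between the groups, with a difference of 0.25.

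**Figure D4:**
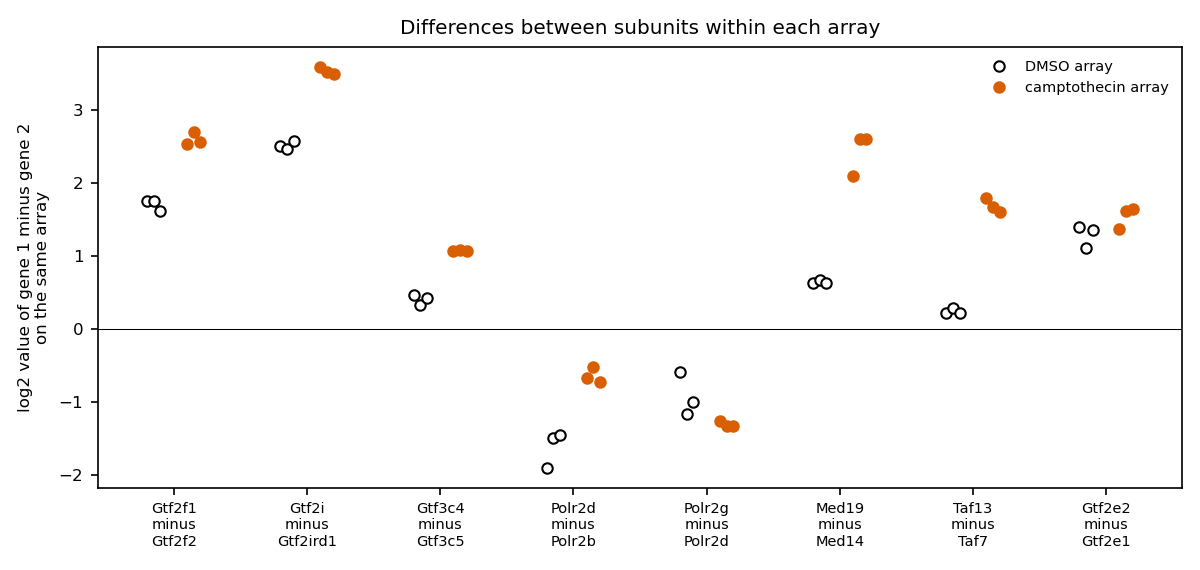
Log2 value of the first gene minus that of the second gene on the same array, for 8 pairs of members chosen after their values were seen. Open circles are DMSO arrays and filled circles camptothecin arrays, 3 of each. The groups are apart for 7 of the pairs and overlap for Gtf2e2 minus Gtf2e1.

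The choice of scale moved the counts in both directions. Array medians were 6.31 to 6.33 with camptothecin and 6.22 to 6.28 with DMSO, and the median change of all genes was 0.06. Relative to that median the 21 rises measured 0.16 to 0.90 and the 15 falls -0.33 to -1.46. After quantile normalization was applied again, 20 of the 21 rises and 14 of the 15 falls kept their call, with Taf11 and Med12l lost. Centring subtracts nearly the same amount from every change, so it can only weaken rises and deepen falls. With each array centred on its median, 11 of the 21 rises and all 15 falls kept their call. Centring on the mean of 68 ribosomal protein genes shifted the median change of all clusters by -0.25. On that scale Polr2d (0.72), Polr2h (0.45), Polr2g (0.33) and Taf5l1 (0.32) kept their call among the rises, Taf10 and Med16 turned to -0.019 and -0.033, and the falls numbered 33. Of the shared polymerase subunits, Polr2f (0.16) and Polr2e (0.07) stayed above 0 there without a call.

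**Figure D5:**
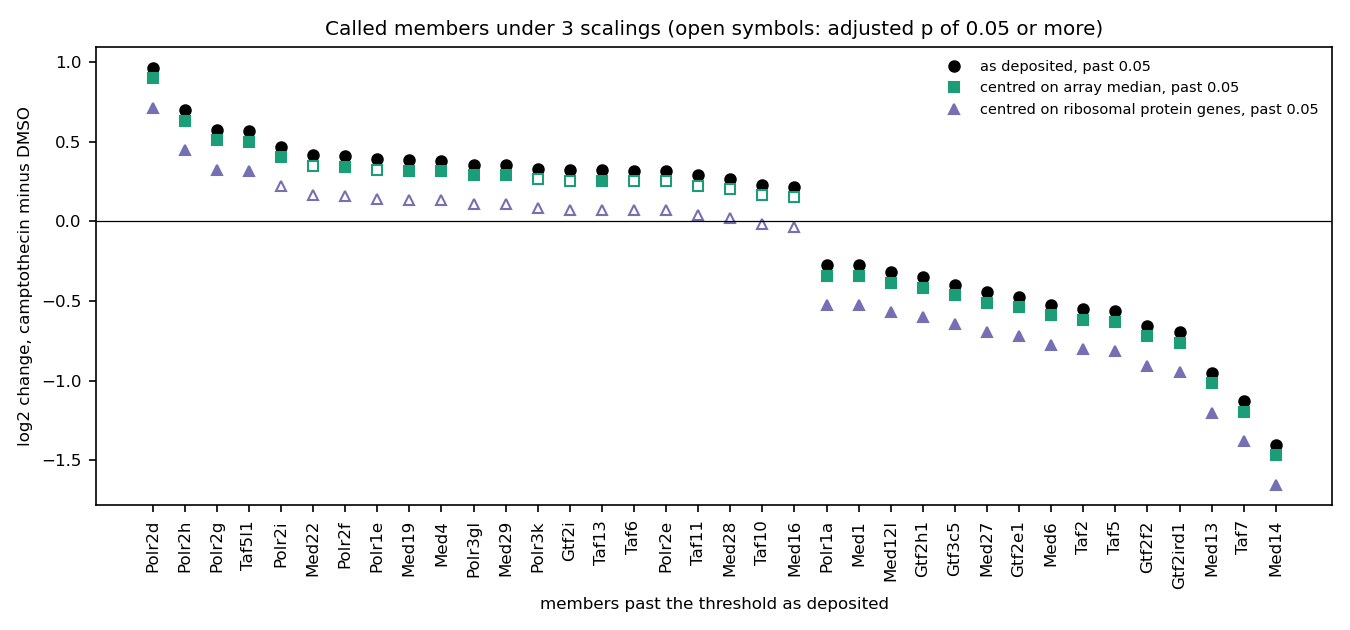
Log2 change of the 36 members past the threshold as deposited (circles), with arrays centred on their median (squares) and centred on ribosomal protein genes (triangles). Filled symbols have an adjusted p under 0.05. All falls stay filled, and among the rises Polr2d, Polr2h, Polr2g and Taf5l1 do.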

How the data were processed

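Total RNA of 6 samples was measured on Affymetrix Rat Gene 1.0 ST arrays, 1 array each. The deposited values are log2 expression per transcript cluster, made by the authors with RMA in the oligo package, per the submitters' processing notes. For the software versions and the annotation build: not given in the sources used here. Array medians stood 6.22 to 6.33, and the number of arrays limits the precision.

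Clusters were named through the platform annotation: of 29214, 15310 had 1 symbol, 323 several and 13581 none. Linear models with moderated variance (limma 3.58.1, R 4.3.3) were fitted to all clusters, camptothecin against DMSO, with adjustment over all of them, after the code was tested on simulated data. Replicate numbers were not used in this fit.

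Values are given on every array for the 8 largest rises and falls and the leading partners. All other called members, the largest change per complex and the largest subunits are named. Other members are named to complete their complexes, chosen after their values were seen. Members and gene lists were chosen with earlier results of these data known. Taf5l1 was added to its complex after the data were opened. Alternatives were other scalings, brightness filters, variance models, thresholds, cluster rules, a replicate block and each array left out. Spans, neighbours and promoters come from RefSeq's GRCr8, which matched all 90 members for span and 78 for promoter.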

Additional observations from a re-analysis of the deposited data

How the results depend on the processing

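The 21 rises became 11 with arrays centred on their median, 4 with ribosomal protein centring, 33 without dim clusters, 4 at a threshold of 0.01 and 1 against a 1.2-fold change, and ranged from 8 to 16 with an array left out. The 15 falls became 33 with ribosomal protein centring, 8 at 0.01 and 5 against 1.2-fold, and ranged from 9 to 12 with an array left out. The 3 partner rises became 0 with ribosomal protein centring, 6 without dim clusters, 5 with a trended and robust variance, 0 at 0.01 and 0 against 1.2-fold, and ranged from 0 to 3. The 11 partner falls became 18, 7 and 4 with ribosomal protein centring, at 0.01 and against 1.2-fold, and ranged from 7 to 9 with an array left out. The members' median of 0.11 was 0.042 with median centring and -0.14 with ribosomal protein centring, where Taf10 (-0.019) and Med16 (-0.033) also turned. The cause of these shifts was not tested. Same-numbered arrays deviated with correlations of -0.08, 0.02 and 0.08, and differently numbered arrays with -0.16 to 0.15. The main fit therefore did not pair arrays by number. With 3 arrays per treatment this check cannot exclude that same-numbered samples share an origin. With a replicate block 9 members rose, 10 fell, and 7 partners fell. Polr2d, Gtf2f2, Gtf2ird1, Med13, Taf7 and Med14 passed in all 17 settings. Over all 131 member and partner genes and the settings run, 1884 values stayed on the same side of the threshold, 245 no longer passed it and 82 newly passed. With ribosomal protein centring Gtf2a2 (-0.20), Med23 (-0.22) and Supt16h (-0.21) passed with the opposite sign, and 49 genes not called as deposited, these 3 included, turned sign.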
